A study of Caenorhabditis elegans with 45 samples.

Results

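The globin genes of the nematode Caenorhabditis elegans were taken as all protein-coding genes whose name starts with glb-, which gave 34 of the 46926 genes (19985 of them protein coding) in the deposited count table. They were described across 9 genotypes with 5 libraries each, 45 in all, made from polyadenylated RNA of whole young adult hermaphrodites. The alleles were smg-2(r863), smg-1(n6597), egl-9(sa307) and hif-1(ia4). There were triple mutants (smg-2 egl-9 hif-1, then smg-1 egl-9 hif-1), double mutants (smg-2 egl-9, then smg-1 egl-9, with egl-9 hif-1), the single mutants smg-2, smg-1 and egl-9, and the wild-type strain N2. No hif-1 mutant without the egl-9 mutation was analysed here. Each library came from 300 to 500 worms picked as L4 larvae and collected 6 h later, grown on OP50 bacteria at 20 °C in 20% oxygen with no treatment, and the labels call the 5 libraries biological replicates A to E. In RNA of whole worms, fewer cells of a type and less RNA per cell cannot be told apart.

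Globins are heme proteins that bind oxygen and other small ligands at the heme iron, and C. elegans carries far more of them than vertebrates do, many of them expressed in neurons. The transcription factor HIF-1 is hydroxylated by EGL-9 in the presence of oxygen and then degraded, and without EGL-9 it accumulates at normal oxygen. Nonsense-mediated decay (NMD) removes mRNAs with premature stop codons and needs the kinase SMG-1 and the RNA helicase SMG-2. The design crosses 3 states of the HIF-1 pathway (egl-9 hif-1, egl-9 and neither mutation) with 3 NMD states (smg-2, smg-1 and intact).

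Total counts per library ranged from 9822412 to 33169699 (median 16917459). RNA of the mutated genes and of 8 HIF-1 targets set the context for the globin values. The hif-1 gene had 15.8 to 36 CPM (counts scaled by TMM to a common library size) in egl-9 hif-1 libraries, against 153 to 177 CPM in N2, but 306 to 392 CPM in smg-2 egl-9 hif-1 and 248 to 361 CPM in smg-1 egl-9 hif-1. A level of hif-1 RNA therefore does not check the label of the triple mutants, and the HIF-1 targets were used beside it. Summed over the 8 targets, the level was 62.6 to 88.9 CPM in 14 of the 15 libraries labelled with a hif-1 mutation, against 2465 to 4601 CPM in the 15 libraries with the egl-9 mutation alone or with an smg mutation. The remaining library, smg-1 egl-9 hif-1 replicate C, stood apart at 234 CPM. For glb-1, glb-6, glb-15, glb-16 and glb-33, the difference of that genotype from smg-1 egl-9 is given with and without this library.

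Of the 34 globin genes, 29 had enough counts to be tested. The other 5 (glb-21, glb-28, glb-30, glb-31 and glb-34) averaged 3.71 to 6.84 counts per library and were left out by the filter on low counts. With no filter glb-30 was lower in smg-2 egl-9 relative to smg-2 (log2 -1.73, adjusted p 0.00543 in edgeR) and higher when hif-1 was mutated too (1.39, adjusted p 0.0419). Levels between genes were compared in TPM (a unit that accounts for transcript length), back-transformed from the deposited log2(TPM + 1) values. In N2, glb-1 had 64 ± 11 TPM (SD, n = 5), and its lowest N2 library, at 54.5 TPM, lay far above the highest of glb-10, the next gene, at 5.22 TPM. Below glb-1 came glb-10 at 4.34 ± 0.695 TPM, glb-18 at 3.34 ± 0.840 TPM, glb-33 at 3.17 ± 0.379 TPM, glb-13 at 2.7 ± 0.332 TPM and glb-19 at 2.5 ± 0.460 TPM. In that order the N2 libraries of neighbouring genes overlapped in 32 of 33 neighbouring pairs, the exception being glb-1 and glb-10. The levels of 20 of the 34 genes were under 1 TPM in N2 and those of 13 lay between 1 and 5 TPM. The lowest was glb-5, with 0.0700 ± 0.0837 TPM in N2.

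**Figure D1:**
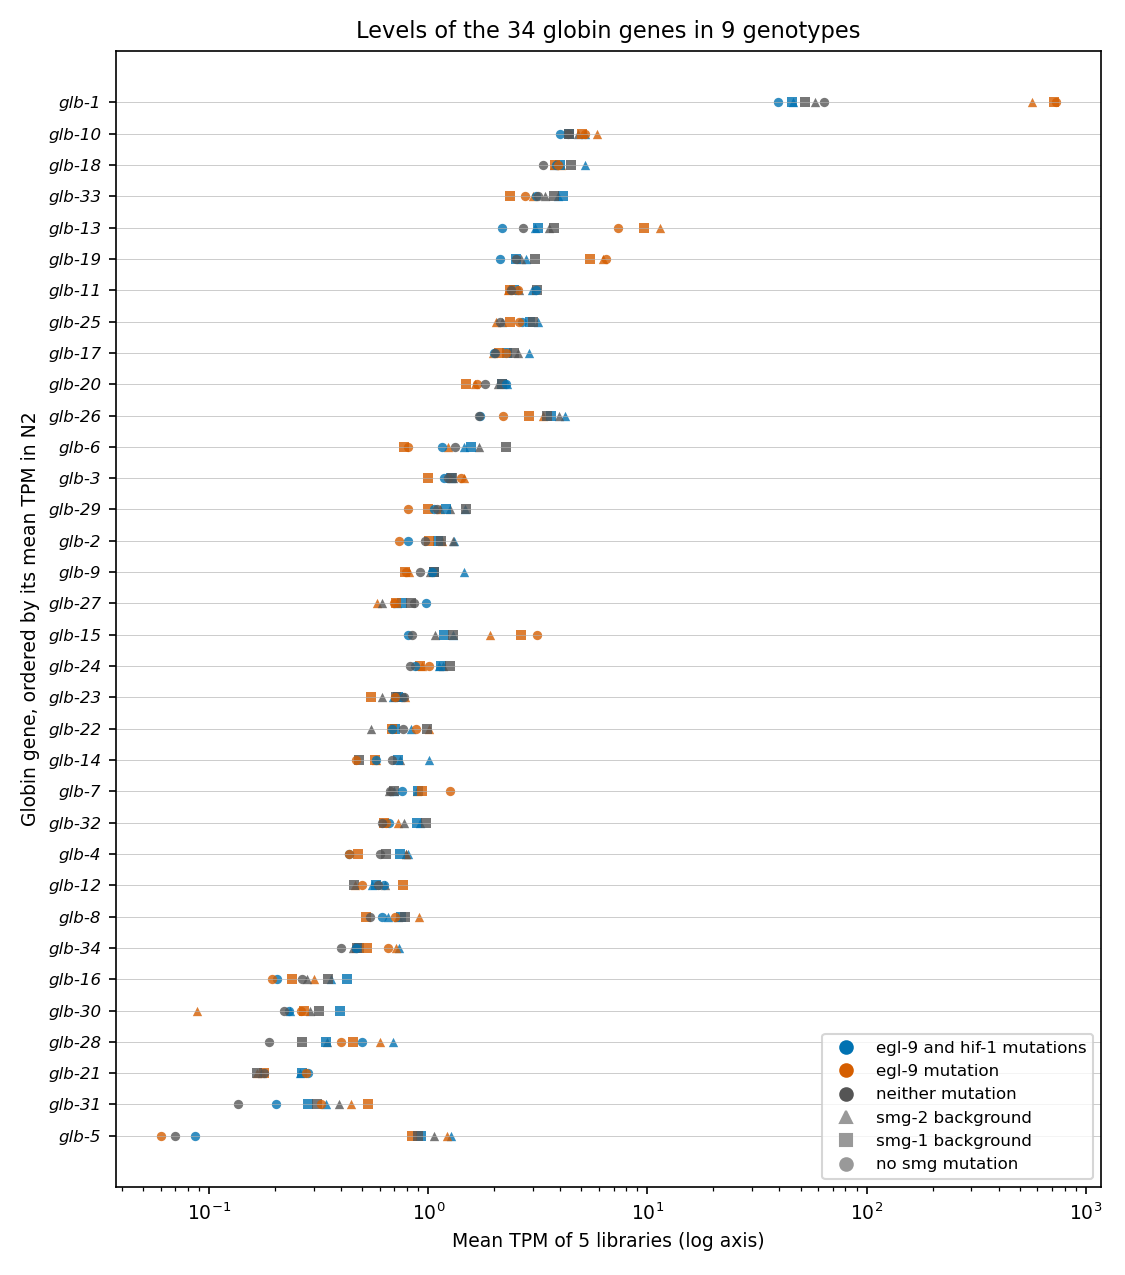
Mean TPM of each of the 34 globin genes in the 9 genotypes (log axis), 1 point per genotype, with genes ordered by their mean in N2; colour gives the egl-9 and hif-1 state and symbol the NMD state. The means of glb-1 lie between 567 and 735 TPM in the egl-9 genotypes with hif-1 intact and between 39.5 and 64 TPM in the others, and those of glb-5 between 0.846 and 1.27 TPM with an smg mutation and between 0.0600 and 0.0860 TPM without one.

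Members that were called (adjusted p under 0.05 in edgeR, adjusted over all 16053 genes tested) are counted first by comparison. In egl-9 relative to N2, 4 of 29 tested globin genes were higher and 2 lower, while 33.7% of all tested genes were called (11.9% higher and 21.8% lower). With hif-1 mutated as well, in egl-9 hif-1 relative to egl-9, 6 were higher and 4 lower, beside 46.8% of all genes called (26.7% higher and 20% lower). These comparisons share the egl-9 libraries. In the smg-1 background, smg-1 egl-9 relative to smg-1 had 5 globin genes higher and 4 lower (50.3% of all genes called, 25.1% higher and 25.3% lower), and smg-1 egl-9 hif-1 relative to smg-1 egl-9 had 5 higher and 4 lower (49.7%, 24% higher and 25.7% lower). In the smg-2 background, smg-2 egl-9 relative to smg-2 had 4 higher and 3 lower (41% of all genes, 19% higher and 21.9% lower), and smg-2 egl-9 hif-1 relative to smg-2 egl-9 had 7 higher and 3 lower (57.6%, 28.4% higher and 29.2% lower). The median log2 change of the 29 globin genes was -0.03 in egl-9 relative to N2, the same as that of all genes. It was -0.3 in smg-1 egl-9 relative to smg-1 and -0.1 in smg-2 egl-9 relative to smg-2 (all genes -0.02 in both). With hif-1 mutated too it was 0.13 with NMD intact (all genes 0.05), 0.29 with smg-1 (-0.02) and 0.32 with smg-2 (0.05). A shift of the family as a whole was not tested. In egl-9 relative to N2 the share of globin genes called, 20.7%, was below that of all genes. The results below are given by single member.

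Changes with the egl-9 mutation were at least 2-fold and upward for 4 globin genes in egl-9 relative to N2 (glb-1, glb-13, glb-15 and glb-19), where 5.77% of all genes were at least 2-fold higher. All 4 were called lower by at least 2-fold in egl-9 hif-1 relative to egl-9, where this held for 4.85% of all genes. The same 4 genes made up the higher ones of at least 2-fold in the smg-1 background (6.4% of all genes), and all but glb-15 did so in the smg-2 background (5.89% of all genes). No other tested member was called higher by at least 2-fold in any of these 3 egl-9 comparisons.

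The gene with the largest response was glb-1 (WBGene00014030, III 8922399 to 8923290, minus strand, WBcel235), which encodes a small myoglobin-like globin that binds oxygen tightly. In egl-9 it had 353, 310, 306, 435 and 268 CPM in replicates A to E, against 39.0, 27.6, 26.6, 41.9 and 27 CPM in N2. Every egl-9 library was above every N2 library, the level being 334 ± 63.6 CPM in egl-9 and 32.4 ± 7.41 CPM in N2 (SD, n = 5 each). The change was 10.3-fold (log2 fold change 3.36, SE 0.20, adjusted p 9.33e-18), the 123rd highest of 16053 tested genes. It lay within the range of the 8 HIF-1 targets, whose log2 changes ran between 2.86 and 9.41 with a median of 4.90.

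With hif-1 mutated too, glb-1 RNA was at or below the wild-type level. In egl-9 hif-1 the libraries had 17.5, 20.7, 19.9, 22.9 and 25.7 CPM, each below all egl-9 libraries and also below all N2 libraries. The level of 21.3 ± 3.13 CPM in egl-9 hif-1 was 15.6-fold lower than in egl-9 (log2 fold change -3.97, SE 0.20, adjusted p 1.12e-19). Against N2 it was 1.52-fold lower (log2 fold change -0.60, SE 0.18, adjusted p 0.0245 in edgeR). That smaller difference was the only call among the globin genes in egl-9 hif-1 relative to N2, where 14.5% of all genes were called (9.65% higher and 4.85% lower). It was lost without N2 replicate A (log2 -0.53, adjusted p 0.071), without N2 replicate D (-0.50, adjusted p 0.0858) and in the absence of egl-9 hif-1 replicate C (-0.63, adjusted p 0.0616). At an unadjusted p under 0.05, 3 globin genes passed there.

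The glb-1 response was found again in both NMD backgrounds. In smg-1 egl-9 it had 292, 441, 368, 267 and 447 CPM, against 30.8, 23.0, 22.8, 25.7 and 23.4 CPM in smg-1. In smg-2 egl-9 it had 208, 323, 261, 235 and 244 CPM, against 27.5, 25.2, 26.4, 32.6 and 30.9 CPM in smg-2. The groups did not overlap in either background, and the fold changes were 14.4 (log2 3.85, SE 0.20, adjusted p 3.73e-19) with smg-1 and 8.92 (log2 3.16, SE 0.19, adjusted p 7.45e-17) with smg-2. When hif-1 was mutated too, glb-1 had 17.3, 17.2, 39.6, 23.9 and 16 CPM in the triple mutant with smg-1 and 22.7, 21.8, 17.3, 21.8 and 24.1 CPM in the one with smg-2. All of these lay below the libraries with the egl-9 mutation and hif-1 intact, by log2 -3.99 (adjusted p 1.38e-19) in the smg-1 background and -3.56 (adjusted p 2.42e-18) in the smg-2 background. The value of 39.6 CPM belonged to replicate C, the library with high HIF-1 targets, and without it the log2 difference was -4.26. For the smg mutations themselves glb-1 did not pass in edgeR, with log2 between -0.40 and 0.12 in 6 comparisons. The lowest, smg-2 egl-9 relative to egl-9, had an adjusted p of 0.0824 and passed under 4 of 7 other settings (log2 -0.39 to -0.52, adjusted p 0.0192 to 0.0372) and without smg-2 egl-9 replicate B (-0.50, adjusted p 0.041). Also, smg-1 relative to N2 passed in a fit on those genotypes only (-0.38, adjusted p 0.0463) and without smg-1 replicate A (-0.47, adjusted p 0.0481).

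**Figure D2:**
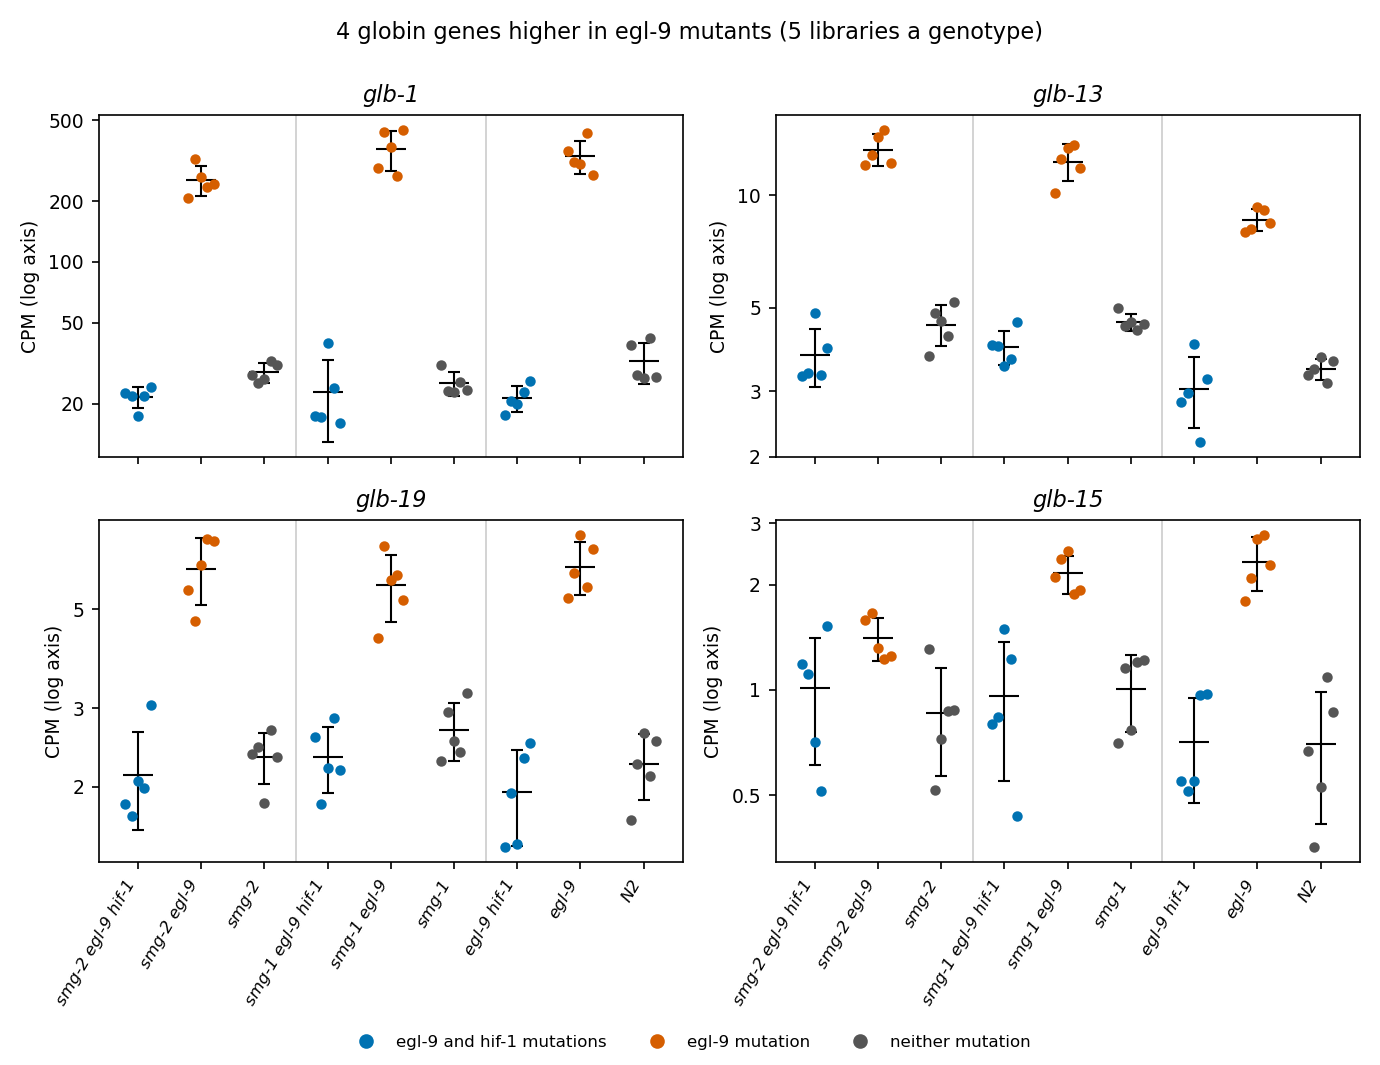
CPM (log axis) of glb-1, glb-13, glb-19 and glb-15 in each library by genotype, with grey lines separating the smg-2, smg-1 and NMD-intact backgrounds; points are libraries and bars the mean ± SD of 5. In each background the egl-9 libraries of glb-1, glb-13 and glb-19 lie above all others, and those of glb-15 in smg-2 egl-9 overlap with the smg-2 and smg-2 egl-9 hif-1 libraries.

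The summed globin level followed that of glb-1. The 34 genes together held 789 ± 118 TPM in egl-9 and 105 ± 9.57 TPM in N2 (SD, n = 5 each), and 81.5 ± 5.78 TPM in egl-9 hif-1. The share of glb-1 in that sum was 93.0% ± 1.18 in egl-9 and 60.7% ± 5.31 in N2, and 48.4% ± 3.62 in egl-9 hif-1. Without glb-1 the sum was 54.1 ± 2.55 TPM in egl-9 and 40.8 ± 3.20 TPM in N2, and 42 ± 3.19 TPM in egl-9 hif-1. In the NMD backgrounds glb-1 made up 90.2% ± 1.3 of the globin TPM in smg-2 egl-9 and 54% ± 3.36 in smg-2. With smg-1 the shares were 92.8% ± 1.38 (smg-1 egl-9) and 49.7% ± 3.71 (smg-1).

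The gene glb-13 (WBGene00008957, X 12374222 to 12378393, minus strand), combined a change with egl-9 and a smaller one with each NMD mutation. It had 8.0, 8.14, 9.30, 9.11 and 8.45 CPM in egl-9, against 3.30, 3.44, 3.69, 3.15 and 3.60 CPM in N2. The groups were well apart and the change was 2.51-fold (log2 1.33, SE 0.12, adjusted p 8.92e-12). In egl-9 hif-1 it had 2.81, 2.97, 4.0, 2.19 and 3.24 CPM, below every egl-9 library (log2 -1.50, SE 0.12, adjusted p 3.23e-13) and overlapping with N2.

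In smg-2 egl-9 glb-13 had 12.0, 12.8, 14.3, 14.9 and 12.2 CPM, against 3.72, 4.84, 4.62, 4.22 and 5.18 CPM in smg-2 (log2 1.55, adjusted p 4.88e-14). In smg-1 egl-9 it had 10.2, 12.5, 13.3, 13.6 and 11.8 CPM, against 4.98, 4.48, 4.59, 4.36 and 4.53 CPM in smg-1 (log2 1.42, adjusted p 6.2e-13). All libraries of both NMD-deficient egl-9 genotypes were thus above the highest egl-9 library, at 9.30 CPM. The differences from egl-9 were 0.62 in log2 for smg-2 egl-9 (SE 0.12, adjusted p 2.77e-05) and 0.52 for smg-1 egl-9 (SE 0.11, adjusted p 0.000456). In the triple mutants glb-13 had 3.29, 3.34, 4.83, 3.30 and 3.90 CPM (smg-2 egl-9 hif-1) and 3.99, 3.95, 3.50, 3.64 and 4.58 CPM (smg-1 egl-9 hif-1), all below the libraries of the egl-9 counterpart (log2 -1.83 and -1.64, adjusted p 5.18e-16 and 8.1e-15).

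Relative to N2 the NMD effect on glb-13 was also called. It was 0.42 in log2 (SE 0.12, adjusted p 0.00422) for smg-1 relative to N2 and 0.39 (SE 0.12, adjusted p 0.00861) for smg-2 relative to N2. The call in smg-2 was lost without smg-2 replicate C (0.33, adjusted p 0.0548) or smg-2 replicate E (0.28, adjusted p 0.0943). It was also lost in edgeR with no filter on low counts (0.31, adjusted p 0.057) and in a fit on the compared genotypes only (0.38, adjusted p 0.0568). Between the genotypes with both egl-9 and hif-1 mutated the differences were 0.30 (adjusted p 0.0465) for smg-2 egl-9 hif-1 and 0.37 (adjusted p 0.0149) for smg-1 egl-9 hif-1 relative to egl-9 hif-1. The first was lost without egl-9 hif-1 replicates A, B or D or smg-2 egl-9 hif-1 replicate C (log2 0.27, 0.29, 0.28 and 0.18, adjusted p 0.0983, 0.0795, 0.0829 and 0.276). The second was lost without egl-9 hif-1 replicate D (0.32, adjusted p 0.0554) or smg-1 egl-9 hif-1 replicate E (0.31, adjusted p 0.0656). In an edgeR fit on the compared genotypes only, both were lost (0.34 and 0.41, adjusted p 0.172 and 0.0865). The Wald test of DESeq2 also lost the first (0.30, adjusted p 0.0801).

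Next came glb-19 (WBGene00010146, IV 10642716 to 10654147, minus strand), which was called only in comparisons of the egl-9 and hif-1 mutations. It had 5.32, 6.05, 7.34, 5.61 and 6.83 CPM in egl-9, against 1.68, 2.25, 2.64, 2.12 and 2.53 CPM in N2. With hif-1 mutated as well it had 1.47, 1.94, 1.49, 2.32 and 2.51 CPM in egl-9 hif-1. The egl-9 libraries were above all others, 2.80-fold over N2 (log2 1.49, SE 0.17, adjusted p 2.81e-09), and egl-9 hif-1 was 3.17-fold below egl-9 (log2 -1.66, SE 0.17, adjusted p 1.5e-10).

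In the NMD backgrounds glb-19 behaved alike. The smg-2 egl-9 libraries had 5.54, 4.70, 6.29, 7.18 and 7.14 CPM, against 2.37, 2.45, 1.84, 2.68 and 2.33 CPM in smg-2 (log2 1.41, adjusted p 8.05e-09). The smg-1 egl-9 libraries had 4.32, 6.95, 5.83, 5.96 and 5.25 CPM, against 2.29, 2.94, 2.53, 2.40 and 3.24 CPM in smg-1 (log2 1.07, adjusted p 1.32e-06). The groups did not overlap in either background. Levels in the triple mutants were 1.83, 1.72, 2.06, 1.98 and 3.05 CPM in smg-2 egl-9 hif-1 and 2.59, 1.83, 2.21, 2.85 and 2.18 CPM in smg-1 egl-9 hif-1. They lay below their egl-9 counterparts by -1.56 and -1.28 in log2 (adjusted p 5.6e-10 and 4.19e-08). In the 6 comparisons of an smg mutant with its NMD-intact counterpart, glb-19 was never called, with log2 differences between -0.14 and 0.27.

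The remaining one, glb-15 (WBGene00009387, V 11616805 to 11618273, minus strand), was high in egl-9 but less so when smg-2 was mutated. It had 1.79, 2.09, 2.71, 2.77 and 2.28 CPM in egl-9, against 0.666, 0.356, 0.527, 1.09 and 0.867 CPM in N2. In egl-9 hif-1 it had 0.550, 0.514, 0.549, 0.968 and 0.971 CPM. The egl-9 libraries were above both other groups, by 3.32-fold over N2 (log2 1.73, SE 0.28, adjusted p 4.1e-06), and egl-9 hif-1 was 3.21-fold below egl-9 (log2 -1.68, SE 0.28, adjusted p 4.33e-06). It shares 24 exonic bases (2.9% of its exons) with nlp-24 on the opposite strand. That gene did not pass in egl-9 relative to N2 (log2 -0.08, adjusted p 0.856) and was higher in egl-9 hif-1 relative to egl-9 (log2 1.00, adjusted p 0.00192). Its part in the glb-15 counts was not tested.

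With smg-1 mutated the glb-15 difference was 2.11-fold. It had 2.10, 2.37, 2.49, 1.88 and 1.93 CPM in smg-1 egl-9, against 0.704, 1.15, 0.766, 1.20 and 1.21 CPM in smg-1, with no overlap (log2 1.08, SE 0.27, adjusted p 0.000979). In smg-1 egl-9 hif-1 it had 0.797, 0.839, 1.49, 1.23 and 0.436 CPM, all below smg-1 egl-9 (log2 -1.15, SE 0.26, adjusted p 0.000367, and -1.36 without replicate C). With smg-2 mutated it had 1.58, 1.66, 1.32, 1.23 and 1.25 CPM in smg-2 egl-9, against 1.31, 0.516, 0.722, 0.871 and 0.875 CPM in smg-2. One smg-2 library, replicate A, reached into the range of smg-2 egl-9, and the difference just passed (log2 0.69, SE 0.28, adjusted p 0.0452). It was lost in 8 of 10 fits that left out 1 library of these genotypes. The exceptions left out smg-2 replicate A or smg-2 egl-9 replicate D, and over the 10 fits log2 lay between 0.56 and 0.92 and adjusted p reached 0.134.

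The lower glb-15 level in smg-2 egl-9 was tested directly. Every smg-2 egl-9 library was below every egl-9 library (log2 -0.73, SE 0.26, adjusted p 0.0302), a call lost without replicates C or D of egl-9 or C, D or E of smg-2 egl-9 (adjusted p 0.0721, 0.0732, 0.0576, 0.0629 and 0.0676). The libraries of smg-2 egl-9 hif-1 had glb-15 at 1.19, 1.11, 0.709, 0.514 and 1.52 CPM, overlapping with smg-2 egl-9 (log2 -0.49, SE 0.28, adjusted p 0.136). The difference between that value and the one in the NMD-intact background was 1.19 in log2 (95% interval 0.38 to 2.01, adjusted p 0.0298). This interaction was the only one called among the globin genes, where 20.1% of all genes were called for smg-2 with hif-1. It was lost without egl-9 hif-1 replicates A or B, egl-9 replicates C or D, or smg-2 egl-9 hif-1 replicate A (log2 1.09 to 1.13, adjusted p 0.0539, 0.061, 0.051, 0.0529 and 0.0505). The corresponding interaction of smg-2 with egl-9 was -1.04 (95% interval -1.85 to -0.23, adjusted p 0.159).

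No other interaction passed for the globin genes. For smg-1 with egl-9, smg-2 with egl-9 and smg-1 with hif-1 the edgeR counts were 0 of 29, with 3, 2 and 1 members at an unadjusted p under 0.05, and 8.93%, 3.64% and 3.58% of all genes were called. The limma fit on the deposited log2 values gave 0, 1 and 0 calls and DESeq2 gave 0 in each. For glb-1 the egl-9 effect differed by 0.49 in log2 between the smg-1 and NMD-intact backgrounds (95% interval -0.03 to 1.01) and by -0.21 for smg-2 (-0.73 to 0.31). For glb-13 these differences were 0.10 (-0.25 to 0.44) and 0.23 (-0.11 to 0.57), and for glb-19 they were -0.41 (-0.89 to 0.06) and -0.08 (-0.56 to 0.40).

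**Figure D3:**
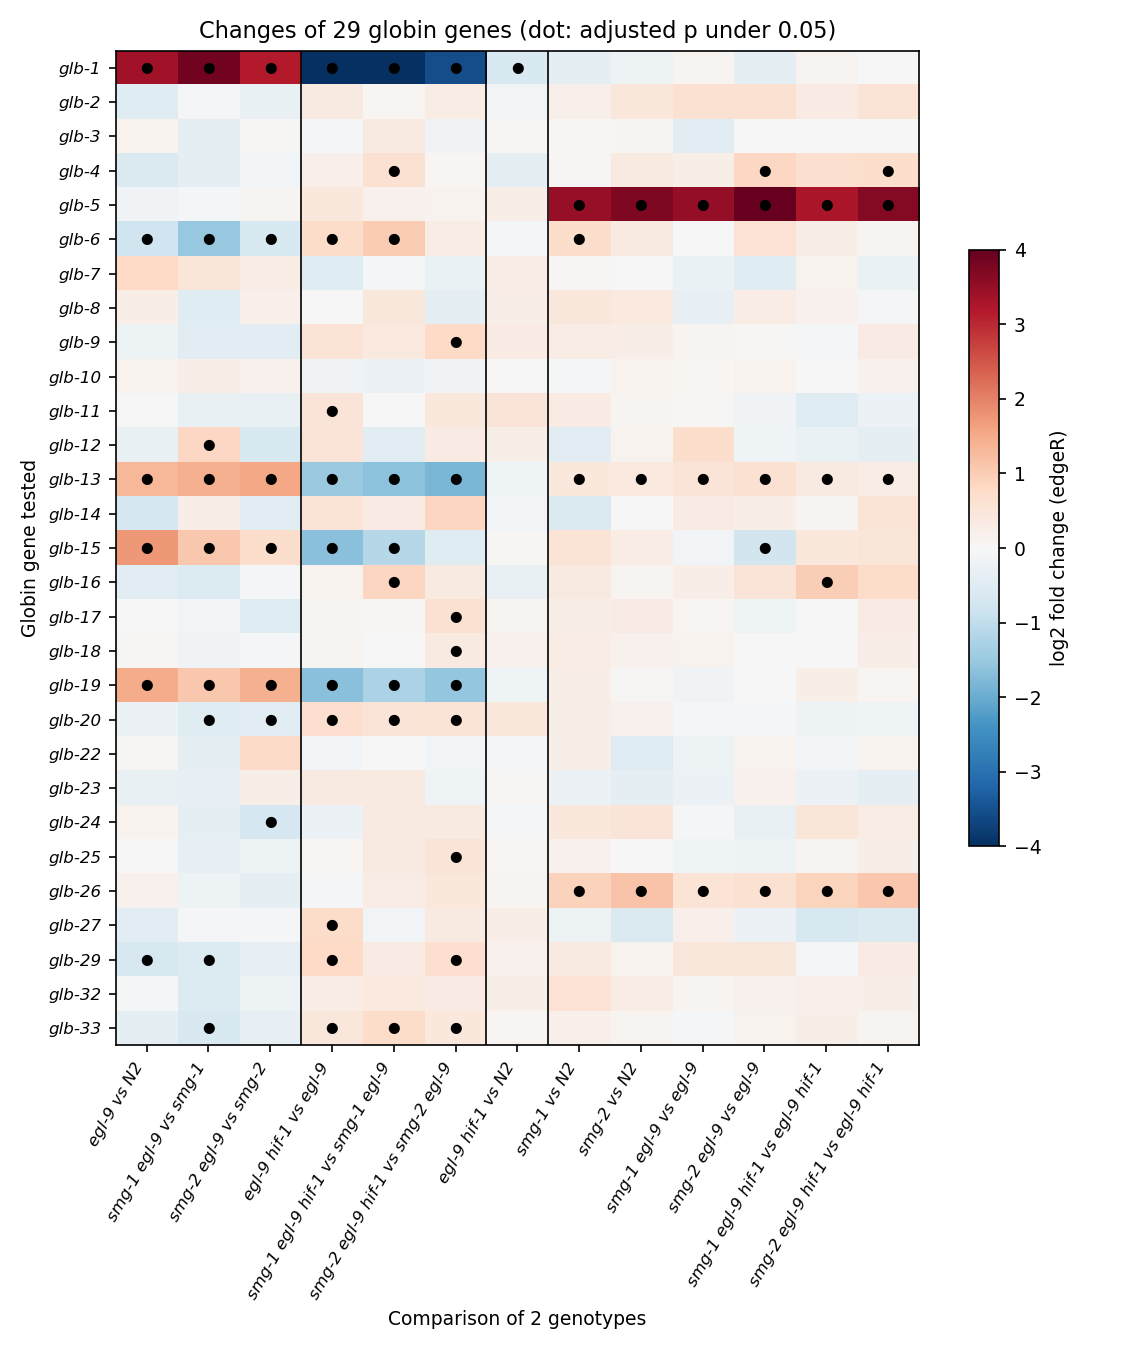
Log2 fold changes (colour) of the 29 tested globin genes in the 13 comparisons of 2 genotypes, with a dot where the edgeR adjusted p was under 0.05; the vertical lines separate the effect of egl-9, the effect of hif-1, egl-9 hif-1 relative to N2, and the effect of an smg mutation. The strong colours sit in glb-1, glb-13, glb-15 and glb-19 for egl-9 and hif-1 and in glb-5 for the smg mutations.

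The calls for the smg mutations were counted in the same way. In smg-1 relative to N2, 4 of 29 were higher and 0 lower (53.1% of all genes called, 28.8% higher and 24.3% lower), and in smg-2 relative to N2, 3 were higher and 0 lower (43.9%, 24.3% higher and 19.6% lower), with the N2 libraries in both. The numbers were 3 and 0 in smg-1 egl-9 relative to egl-9 (34.7% of all genes, 24.1% higher and 10.6% lower). For smg-2 egl-9 relative to egl-9 they were 4 and 1 (33.3%, 23.6% higher and 9.66% lower). Both triple mutants had 4 higher and 0 lower relative to egl-9 hif-1. The shares of all genes were 36.7% for the triple mutant with smg-1 (18.6% higher and 18% lower) and 51.8% for that with smg-2 (25.8% higher and 26% lower). In each of these 6 comparisons, and in the 7 others, the share of globin genes called was below that of all genes. Called higher in all 6 were glb-5, glb-13 and glb-26.

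The glb-5 gene (WBGene00015964, V 5558890 to 5564263, plus strand) encodes a globin that acts in the URX and BAG oxygen-sensing neurons and tunes their responses to oxygen. As background, the laboratory strain N2 is known for a glb-5 allele with an internal duplication that natural isolates lack. The 5 libraries of egl-9 hif-1 held 10 counts of it in all, those of egl-9 held 7 and those of N2 held 9, so that no library of these genotypes exceeded 0.237 CPM and 5 of the 15 held 0 counts.

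With NMD lost, glb-5 was detected in all libraries. It had 1.35, 1.15, 0.766, 0.981 and 1.25 CPM in smg-1 and 1.48, 1.68, 1.01, 1.34 and 1.17 CPM in smg-2, against 0.127, 0.237, 0.0659, 0 and 0 CPM in N2. It had 1.52, 1.02, 0.880, 1.24 and 0.656 CPM in smg-1 egl-9 and 1.08, 1.52, 1.20, 1.60 and 1.68 CPM in smg-2 egl-9, against 0.119, 0.0747, 0.164, 0 and 0 CPM in egl-9. It had 0.797, 1.13, 1.12, 1.48 and 1.28 CPM in the triple mutant with smg-1 and 1.83, 1.57, 1.68, 1.1 and 1.62 CPM in that with smg-2, against 0.183, 0.171, 0, 0.129 and 0.0809 CPM in egl-9 hif-1. No library with an smg mutation overlapped with any library without one.

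Since the NMD-intact groups held few counts, the ratios of summed glb-5 counts per library size are given with exact 95% intervals that cover counting error only. They were 11.8 (5.98 to 26.5) for smg-1 over N2 (103 against 9 counts) and 13.7 (6.99 to 30.6) for smg-2 over N2 (125 against 9 counts). Over egl-9 they were 11.6 (5.46 to 29.7) for smg-1 egl-9 and 16.7 (7.86 to 42.2) for smg-2 egl-9, and over egl-9 hif-1 10.5 (5.53 to 22.3) for smg-1 egl-9 hif-1 and 13.5 (7.10 to 28.8) for smg-2 egl-9 hif-1. All 6 were called in edgeR, with adjusted p between 3.14e-10 and 1.18e-08. The gene passed the filter on low counts only through the smg genotypes, where it is high. These p-values are therefore not separate support for the difference. The egl-9 mutation did not change glb-5 detectably in either NMD background, with log2 differences of -0.08 in smg-1 egl-9 relative to smg-1 (95% interval -0.69 to 0.53) and 0.10 in smg-2 egl-9 relative to smg-2 (-0.50 to 0.69).

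Genes of the oxygen-sensing neurons were set beside glb-5 as a list of 14, of which 12 were tested. They hold guanylate cyclases, channel subunits, neuropeptides and other genes of these cells, and not glb-5 itself. Of the 12, 5 were higher and 0 lower in smg-1 relative to N2 (median log2 0.54, against 0.11 over all genes), and 4 were higher and 0 lower in smg-2 relative to N2 (median 0.53, against 0.07). Of all genes, 53.1% were called in the first (28.8% higher and 24.3% lower) and 43.9% in the second (24.3% higher and 19.6% lower). The largest differences were those of cng-1, a cyclic nucleotide-gated channel subunit (log2 3.23 in smg-1 and 4.24 in smg-2), gcy-35, a soluble guanylate cyclase that senses oxygen (2.77 and 2.76), and ets-5, a transcription factor of the BAG neurons (2.23 and 2.28). The other 9 were below these, between -0.18 and 1.01. The summed level of the 14 genes was 41.1 to 47.7 CPM in smg-1 and 46.5 to 58.9 CPM in smg-2, against 20.4 to 28.4 CPM in N2. With egl-9 mutated it was 30.5 to 36.8 CPM (smg-1 egl-9) and 35.3 to 42.4 CPM (smg-2 egl-9), against 17 to 23.4 CPM in egl-9, with 4 of 12 higher and 0 lower in both. Of all genes, 34.7% and 33.3% were called there (24.1% and 23.6% higher). With hif-1 mutated too it was 37.3 to 45.3 CPM in the triple mutant with smg-1 (3 higher, 0 lower) and 106 to 162 CPM in that with smg-2 (5 higher, 0 lower), against 24.0 to 29.2 CPM in egl-9 hif-1. The shares of all genes called were 36.7% with smg-1 and 51.8% with smg-2 (18.6% and 25.8% higher). The median log2 of the 12 tested genes was 0.35 in both triple mutants (all genes -0.04 with smg-1 and 0 with smg-2). With smg-2 their log2 changes ran from 0.14 to 5.81, so the summed level does not stand for a like rise of the whole list. Of the 14 pan-neuronal markers, 2 were higher and 1 lower in smg-1 relative to N2 and 1 was higher and 0 lower in smg-2 relative to N2, and their summed level was 418 to 486 CPM in smg-1 and 432 to 456 CPM in smg-2, against 426 to 473 CPM in N2. The part of cell number in the glb-5 difference was not tested.

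**Figure D4:**
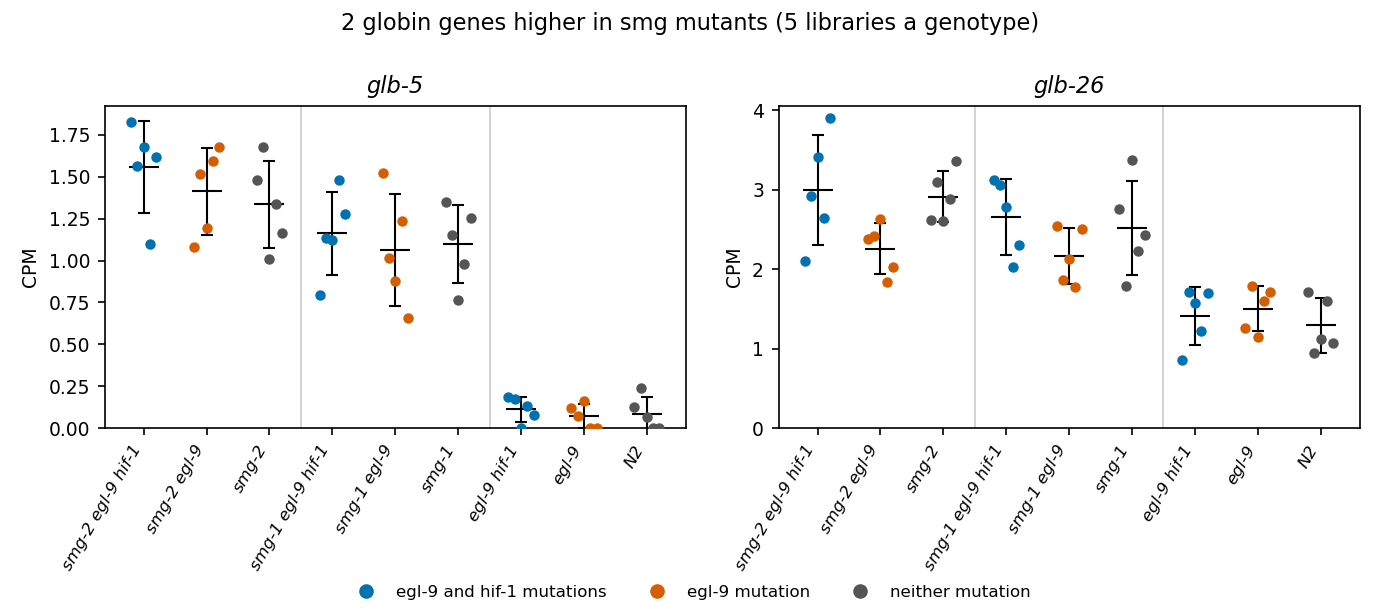
CPM of glb-5 and glb-26 in each library by genotype, with points for libraries and bars for the mean ± SD of 5, cut at 0 where the SD reaches below it; grey lines separate the smg-2, smg-1 and NMD-intact backgrounds. All libraries of glb-5 with an smg mutation lie between 0.656 and 1.83 CPM, and those without one between 0 and 0.237 CPM.

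The remaining gene called higher in all 6 NMD comparisons was glb-26 (WBGene00011913, I 7937438 to 7938487, minus strand), a globin described as redox active and found in the head mesodermal cell and the stomatointestinal muscle. It had 2.76, 1.79, 3.37, 2.23 and 2.43 CPM in smg-1 and 2.62, 3.10, 2.60, 2.88 and 3.36 CPM in smg-2, against 1.71, 0.949, 1.12, 1.60 and 1.07 CPM in N2. Both NMD mutants lay above N2 without overlap, by 1.91-fold for smg-1 (log2 0.93, SE 0.20, adjusted p 0.00013) and 2.21-fold for smg-2 (log2 1.14, SE 0.20, adjusted p 7.17e-06).

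In the hif-1 mutants glb-26 had 2.10, 2.92, 3.42, 2.64 and 3.90 CPM in the triple mutant with smg-2 and 3.12, 3.06, 2.79, 2.02 and 2.30 CPM in that with smg-1, against 0.855, 1.71, 1.57, 1.23 and 1.70 CPM in egl-9 hif-1. Again the groups did not overlap, with log2 differences of 1.07 (adjusted p 1.24e-05) and 0.89 (adjusted p 0.000268). With egl-9 alone mutated it had 2.37, 2.42, 2.63, 1.84 and 2.02 CPM in smg-2 egl-9 and 2.54, 1.86, 2.13, 1.77 and 2.5 CPM in smg-1 egl-9, against 1.25, 1.79, 1.15, 1.60 and 1.71 CPM in egl-9. All smg-2 egl-9 libraries were above egl-9 and those of smg-1 egl-9 overlapped with it. These differences were 0.61 (adjusted p 0.0165) and 0.54 (adjusted p 0.0296). The first was lost without egl-9 replicate C (0.51, adjusted p 0.0616), and the second without replicates A or C of egl-9 or A or E of smg-1 egl-9 (0.49, 0.45, 0.48 and 0.48, adjusted p 0.08, 0.098, 0.066 and 0.0757). With no filter on low counts the first was lost too (0.48, adjusted p 0.0732 in edgeR). The second was lost in 5 of 7 other settings, among them the DESeq2 Wald test (0.48, adjusted p 0.0586) and limma (0.28, adjusted p 0.0835).

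For glb-26 the gene model limits the reading of these counts. Of its 791 exonic bases 648 (81.9%) lie opposite exons of T22C1.1, a gene on the plus strand with a mean of 110 CPM over all libraries. The libraries were made with a strand-specific kit, but whether strand was used in counting is not given in the sources used here, so reads of the pair may not be told apart. T22C1.1 moved the other way, at 90.4 ± 13.9 CPM with smg-1 mutated and 102 ± 16.9 CPM with smg-2 mutated, against 139 ± 10.1 CPM in N2 (log2 -0.63 and -0.46, adjusted p 1.64e-06 and 0.000235). It was lower, and called, in 5 of the 6 NMD comparisons, the exception being smg-2 egl-9 relative to egl-9 (log2 -0.23, adjusted p 0.0716).

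On chromosome V the gene next to glb-5 is glb-6 (WBGene00015969, 5568184 to 5570533, minus strand), with 3920 bases and 0 coding genes between them. Its protein is a neuronal globin whose heme is redox active rather than a reversible oxygen binder. It had 1.08, 1.34, 1.23, 0.729 and 0.894 CPM in egl-9, against 1.65, 2.19, 1.52, 2.18 and 1.87 CPM in N2, with all egl-9 libraries below N2 (log2 -0.81, SE 0.24, adjusted p 0.00606). In egl-9 hif-1 it had 2.14, 1.94, 1.33, 1.61 and 1.78 CPM, higher than egl-9 (log2 0.73, SE 0.24, adjusted p 0.0109) with 1 library, replicate C, just inside the egl-9 range.

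With smg-1 mutated the glb-6 difference was 2.89-fold. It had 1.08, 0.734, 1.03, 1.67 and 0.820 CPM in smg-1 egl-9, against 2.7, 3.20, 3.37, 3.11 and 3.02 CPM in smg-1, all of smg-1 egl-9 being lower (log2 -1.53, SE 0.23, adjusted p 6.57e-07). Among the 29 tested members this was the only downward call of at least 2-fold in the 3 egl-9 comparisons (glb-30 joined it in smg-2 egl-9 with no filter), where 11.4% (smg-1 egl-9 relative to smg-1), 9.13% (smg-2 egl-9 relative to smg-2) and 11.8% (egl-9 relative to N2) of all genes were lower by that much. In smg-1 egl-9 hif-1 the libraries had 2.92, 3.16, 1.60, 1.44 and 1.68 CPM, higher than smg-1 egl-9 (log2 1.00, SE 0.23, adjusted p 0.000344, and 1.12 without replicate C) and in overlap with it. The smg-1 libraries were also above all N2 libraries (log2 0.71, SE 0.22, adjusted p 0.006).

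With smg-2 mutated, glb-6 had 1.58, 1.23, 1.68, 1.60 and 1.81 CPM in smg-2 egl-9, against 2.45, 3.03, 2.38, 2.08 and 1.97 CPM in smg-2. All smg-2 egl-9 libraries were lower (log2 -0.60, SE 0.22, adjusted p 0.029), and the call was lost without smg-2 replicate B (-0.50, adjusted p 0.0848) or smg-2 egl-9 replicate B (-0.51, adjusted p 0.0805). The level in smg-2 egl-9 hif-1 was 1.46, 1.32, 2.00, 1.84 and 3.24 CPM and did not pass relative to smg-2 egl-9 (log2 0.29, adjusted p 0.286). For glb-6 the interaction between smg-1 and egl-9 was -0.72 in log2 (95% interval -1.38 to -0.05, adjusted p 0.155), so the egl-9 effect was not shown to differ between the backgrounds.

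Another member with a described structure is glb-33 (WBGene00022284, V 1352126 to 1356594, plus strand), whose globin domain is joined to a region like that of 7-transmembrane neuropeptide receptors. It had 4.64, 5.19, 6.41, 5.43 and 3.65 CPM in smg-1 egl-9, against 8.09, 6.84, 7.20, 9.04 and 7.14 CPM in smg-1, with no overlap (log2 -0.60, SE 0.15, adjusted p 0.000844). In egl-9 it had 5.14, 6.42, 5.90, 4.59 and 4.39 CPM, against 6.32, 6.94, 6.66, 6.36 and 7.47 CPM in N2. In smg-2 egl-9 it had 5.25, 4.61, 6.35, 6.14 and 6.62 CPM, against 7.70, 8.97, 8.31, 6.5 and 4.74 CPM in smg-2. Both pairs overlapped and neither passed (log2 -0.35 and -0.33, adjusted p 0.0693 and 0.0698). The first passed without egl-9 replicate B (-0.42, adjusted p 0.0351), and the second with DESeq2 (-0.34, adjusted p 0.0481) and without smg-2 replicate E (-0.47, adjusted p 0.00606).

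With hif-1 mutated glb-33 was higher in all 3 backgrounds. It had 6.84, 7.42, 7.21, 8.0 and 6.51 CPM in egl-9 hif-1, above every egl-9 library (log2 0.44, SE 0.15, adjusted p 0.0141). In smg-1 egl-9 hif-1 it had 8.37, 8.68, 6.15, 10.0 and 8.78 CPM (log2 0.73, adjusted p 6.98e-05 relative to smg-1 egl-9, and 0.85 without replicate C), where replicate C overlapped. In smg-2 egl-9 hif-1 it had 6.40, 7.32, 8.89, 8.08 and 8.09 CPM, overlapping with smg-2 egl-9 (log2 0.42, adjusted p 0.0142). The last call was lost without smg-2 egl-9 replicate B (0.34, adjusted p 0.056). The call in egl-9 hif-1 was lost with DESeq2 (0.33, adjusted p 0.0526), with no filter on low counts (0.33, adjusted p 0.0735) and with limma (0.13, adjusted p 0.424).

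The remaining member with a known role, glb-12 (WBGene00008256, II 10729804 to 10731652, minus strand), acts in the somatic gonad in redox signalling for reproduction. It was low, at 0.358, 0.747, 0.656, 0.219 and 0.325 CPM in egl-9 and 0.571, 0.652, 0.791, 0.385 and 0.533 CPM in N2, with overlapping libraries (log2 -0.31, 95% interval -1.04 to 0.42). In egl-9 hif-1 it had 0.550, 0.799, 0.784, 0.645 and 0.647 CPM, in overlap with both. In smg-1 egl-9 it had 0.318, 0.621, 0.623, 1.34 and 0.943 CPM, against 0.528, 0.320, 0.689, 0.381 and 0.295 CPM in smg-1.

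That last pair gave the only glb-12 call in edgeR with all libraries, in spite of overlap (log2 0.84, SE 0.35, adjusted p 0.0406). It was lost without smg-1 egl-9 replicates D or E (0.57 and 0.76, adjusted p 0.19 and 0.0944) or smg-1 replicates B, D or E (0.76, 0.80 and 0.70, adjusted p 0.0905, 0.0741 and 0.12). In smg-2 egl-9 glb-12 had 0.360, 0.142, 0.479, 0.552 and 0.559 CPM, against 0.550, 0.516, 0.867, 0.871 and 0.365 CPM in smg-2 (log2 -0.62, adjusted p 0.163). The triple mutants had 0.640, 0.452, 0.709, 0.441 and 0.381 CPM (smg-2 egl-9 hif-1) and 0.731, 0.395, 0.306, 0.866 and 0.529 CPM (smg-1 egl-9 hif-1), and neither passed against its egl-9 counterpart (log2 0.32 and -0.46, adjusted p 0.478 and 0.242).

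**Figure D5:**
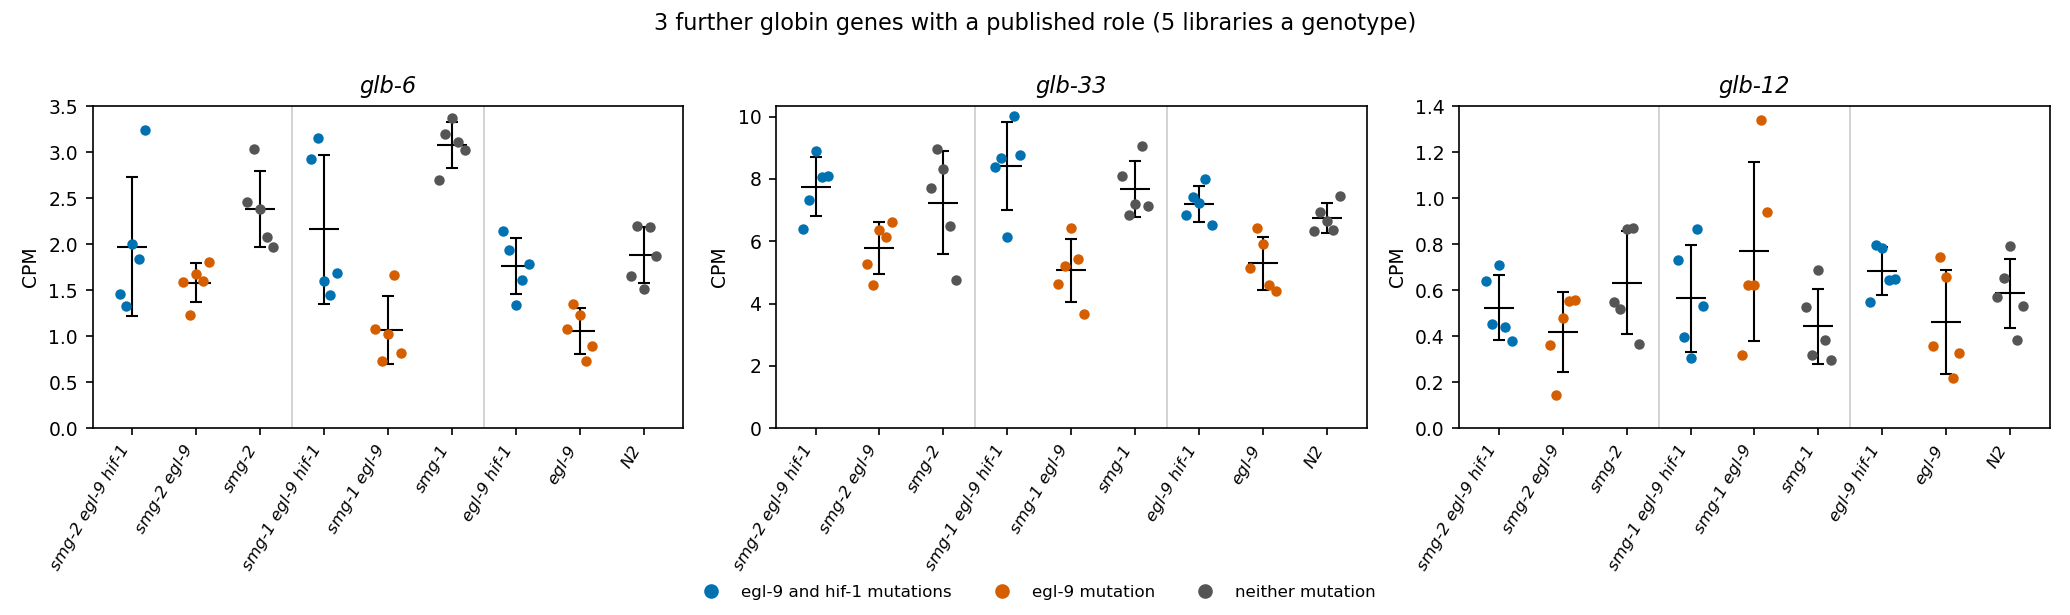
CPM of glb-6, glb-33 and glb-12 in each library by genotype, with points for libraries and bars for the mean ± SD of 5; grey lines separate the smg-2, smg-1 and NMD-intact backgrounds. For glb-6 all egl-9 libraries lie below those of N2, and the smg-1 libraries, at 2.7 to 3.37 CPM, lie above those of smg-1 egl-9, at 0.734 to 1.67 CPM.

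Of the other 20 tested members, 11 were called at least once among the 13 comparisons, each by less than 2-fold with all libraries. In single comparisons 14.5% to 57.6% of all genes were called, and the share called at least once was not counted. A lower level in egl-9 genotypes and a higher one after loss of hif-1 was called most often for glb-20. Its level was 2.11 ± 0.362 CPM in egl-9 and 2.49 ± 0.853 CPM in N2, a difference that did not pass (log2 -0.23, adjusted p 0.385 in edgeR). It was higher in all 3 comparisons of a hif-1 mutant with its egl-9 counterpart (log2 0.51 to 0.66). Limma lost these calls with NMD intact (0.29, adjusted p 0.0601) and with smg-2 (0.29, adjusted p 0.0513). The gene was lower in smg-1 egl-9 relative to smg-1 (-0.48) and in smg-2 egl-9 relative to smg-2 (-0.45), calls that were lost in 5 and 6 of 10 fits with 1 library left out (adjusted p up to 0.0605 and 0.199). The level of glb-29 was 0.699 ± 0.136 CPM in egl-9 and 1.1 ± 0.195 CPM in N2 (log2 -0.64, adjusted p 0.034, lost in 6 of 10 such fits with adjusted p up to 0.0809). It was 1.24 ± 0.408 CPM in egl-9 hif-1, above egl-9 in all libraries (log2 0.81, adjusted p 0.00476). Limma lost that glb-29 call (0.17, adjusted p 0.218). The glb-29 call in egl-9 relative to N2 was lost in 5 of 7 other settings, among them the DESeq2 Wald test (-0.57, adjusted p 0.117). Both genes were singled out after their values were seen. The other 9 genes were called in 1 to 3 comparisons each (glb-4 in 3, glb-16 in 2, and glb-9, glb-11, glb-17, glb-18, glb-24, glb-25 and glb-27 in 1 each). In smg-1 egl-9 hif-1 relative to smg-1 egl-9, glb-16 had log2 0.85 with all libraries. Without smg-1 egl-9 hif-1 replicate C it reached 1.01 (adjusted p 0.0229 in edgeR), but the call was lost in 6 of 10 fits with 1 library left out.

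Tissue markers were set beside these downward changes. Of all genes, 33.7% were called in egl-9 relative to N2, 50.3% in smg-1 egl-9 relative to smg-1 and 41% in smg-2 egl-9 relative to smg-2. When hif-1 was mutated too, the shares were 46.8% with NMD intact, 49.7% with smg-1 and 57.6% with smg-2. All 12 sperm markers were lower in egl-9 relative to N2 (median log2 -1.23), with summed levels of 233 to 519 CPM in egl-9 and 584 to 981 CPM in N2, and all 12 were higher in egl-9 hif-1 relative to egl-9. Of the 14 pan-neuronal markers 0 were higher and 2 lower in egl-9 relative to N2, with summed levels of 418 to 453 CPM in egl-9 and 426 to 473 CPM in N2. In smg-1 egl-9 relative to smg-1, where glb-6 and glb-33 fell, 1 was higher and 6 were lower, beside 50.3% of all genes called (417 to 453 CPM in smg-1 egl-9 and 418 to 486 CPM in smg-1). No pan-neuronal marker was called in smg-2 egl-9 relative to smg-2. When hif-1 was mutated too, 6 were higher and 0 lower relative to egl-9, and 6 were higher and 1 lower in each smg background. Of 11 body wall muscle markers, 1 was higher and 1 lower in egl-9 relative to N2, and 0 were higher and 5 lower in the egl-9 comparison of each smg background. With hif-1 mutated too, 6 muscle markers were higher and 1 lower with NMD intact, 4 and 0 with smg-1 and 5 and 0 with smg-2. In egl-9 relative to N2, 0 of 8 intestine markers were higher and 3 lower, and of 5 epidermis markers 1 was higher and 0 lower. No marker was at 0 in all libraries of a genotype. The part of tissue composition in the globin values was not tested.

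Genes that handle heme, the cofactor of all globins, were set beside them. Of 9 such genes, chosen from the heme-responsive genes and their transporters, 8 were tested, and in egl-9 relative to N2 0 were higher and 2 lower (median log2 -0.17, against -0.03 over all genes). Of all genes, 33.7% were called there (11.9% higher and 21.8% lower). In egl-9 hif-1 relative to egl-9, 1 heme gene was higher and 3 were lower, beside 46.8% of all genes called (26.7% higher and 20% lower). In smg-1 relative to N2, 1 was higher and 3 were lower (median -0.28, against 0.11 over all genes, of which 53.1% were called). In smg-2 relative to N2, 1 was higher and 0 lower (median -0.21, against 0.07 over all genes, of which 43.9% were called). The 1 higher gene was hrg-9 in each (log2 3.75 and 3.36), so the list as a whole did not rise with it. The summed level of the heme genes was 234 to 335 CPM in egl-9 and 267 to 386 CPM in N2.

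In edgeR with all libraries, 9 tested members (glb-2, glb-3, glb-7, glb-8, glb-10, glb-14, glb-22, glb-23 and glb-32) were called in 0 of the 13 comparisons. Of these, all but glb-3 and glb-23 were called in at least 1 alternative. For example, glb-7 passed in egl-9 relative to N2 with DESeq2 (0.87, adjusted p 0.0498) and with limma (0.43, adjusted p 0.0335), and glb-10 in egl-9 hif-1 relative to egl-9 with limma (-0.32, adjusted p 0.0192). Among them glb-10 was measured best, with a mean of 79.6 counts per library, and its log2 differences lay between -0.24 and 0.27 in the comparisons of the egl-9, hif-1 and smg mutations. For glb-14, at 10.6 counts per library, they ran between -0.67 and 0.85, and these did not pass at this depth. Over the 13 comparisons, 75 of 377 tests of a globin gene were called, 31 of them with at least 2-fold. Of all genes, 14.5% to 57.6% were called in a single comparison, above the share of globin genes in each. How many of all genes were called in 0 comparisons was not counted.

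The globin genes are scattered over all 6 chromosomes, with 10 on V, 7 on II, 6 on IV, 5 on X and 3 each on I and III. The 4 genes that rose in egl-9 by at least 2-fold lie on III (glb-1), X (glb-13), V (glb-15) and IV (glb-19). After glb-5 and glb-6, the closest pair was glb-23 and glb-2 on IV, 42564 bases apart with 13 coding genes between them. Exons of 17 members overlap those of another gene, in each case on the opposite strand, and apart from glb-26 the overlap covered at most 10.4% of the member's exons.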

How the data were processed

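The 45 libraries were made with a strand-specific kit (12 PCR cycles) and read as 75 nt pairs, per the labels' protocols. The authors deposited estimated counts per gene, as whole numbers, and log2(TPM + 1) values per gene, in which length and depth are accounted for. The submitters' processing notes list STAR 2.7.9a, RSEM 1.3.0, FastQC, DESeq2 and the build WBcel235, with no role or order. The annotation release and the strand setting of the counting are not given in the sources used here. Gene coordinates and exons were read from the Ensembl annotation of WBcel235, in which all 46926 identifiers were found.

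The deposited estimated counts were filtered with filterByExpr (minimum count 10, minimum total 15), which left 16053 genes and dropped 0.0372% of the counts. They were scaled by TMM and tested with edgeR 4.0.16 (R 4.3.3) by the quasi-likelihood test in 1 fit over the 9 genotypes (36 residual degrees of freedom), with 13 comparisons of 2 genotypes and 4 interactions. An interaction is the difference, in log2, between the egl-9 or hif-1 effect in an smg background and the same effect with NMD intact. P-values were adjusted over all tested genes by Benjamini-Hochberg, and a call is an adjusted p under 0.05. A floor of 3 counts marks what a library can detect, and it and the 95% intervals on count ratios cover counting error only. Comparisons that share libraries are not independent.

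The members and lists were chosen with earlier results of these data known. Values of every library are given for members with a call of at least 2-fold in a comparison of 2 genotypes and for glb-1, glb-5, glb-6, glb-12, glb-26 and glb-33, for which a role is published. Alternatives were the size factors and Wald test of DESeq2 1.42.0, limma 3.58.1 on the deposited log2 values, other filters on low counts, a fit on the compared genotypes only, a replicate block, and leaving out each library. Replicates of 1 genotype differed by more than sampling noise in all 90 pairs. The labels do not say that a replicate letter marks a shared batch, and the letters were not used as pairs.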

Additional observations from a re-analysis of the deposited data

Results flagged for a closer look

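Of 81 groups of 5 libraries examined (9 members in 9 genotypes), 1 held a library far from the others. This was glb-19 in smg-2 egl-9 hif-1, where replicate E had 3.05 CPM and the other 4 libraries had 1.72 to 2.06 CPM. Chance flags about 1 in 20 such groups.

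For glb-15 the effect of the hif-1 mutation was called different between the smg-2 and the NMD-intact backgrounds. The log2 difference was -0.49 in smg-2 egl-9 hif-1 relative to smg-2 egl-9, whereas egl-9 hif-1 relative to egl-9 gave -1.68. Their difference, tested as an interaction in edgeR, was 1.19 (adjusted p 0.0298). This call was lost in 5 of 20 fits with 1 library left out (adjusted p up to 0.061).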

How the results depend on the processing

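Of the 31 calls of at least 2-fold, 0 lost their adjusted p under 0.05 in any setting that tested the gene (glb-5, at a mean of 0.878 CPM, was left out by the filter of 1 CPM). Their size was not held to 2-fold in that count. With 1 library left out, glb-15 fell to log2 0.96 in smg-1 egl-9 relative to smg-1, for example. In smg-2 egl-9 hif-1 relative to egl-9 hif-1, glb-26 fell to 0.94. Of the 44 smaller calls, 32 were lost in at least 1 setting, and no difference reversed. Limma on the deposited log2 values lost 16 of the calls. It called 5 globin genes, not 10, in egl-9 hif-1 relative to egl-9, 7, not 4, in smg-1 relative to N2, 9, not 4, in smg-2 egl-9 hif-1 relative to egl-9 hif-1, 1, not 0, for the smg-2 by egl-9 interaction (glb-15) and 2, not 1, for the smg-2 by hif-1 interaction (glb-1 with glb-15). The filter of 1 CPM gave 3 calls, not 5, in smg-2 egl-9 relative to egl-9 and 2, not 4, in both smg-1 egl-9 hif-1 and smg-2 egl-9 hif-1 relative to egl-9 hif-1. A fit on the compared genotypes only also gave 2 in these last 2 comparisons, and the Wald test of DESeq2 gave 2 in smg-2 egl-9 hif-1 relative to egl-9 hif-1. The size factors of DESeq2 shifted the log2 changes by -0.11 in smg-2 egl-9 relative to egl-9 and by -0.10 to 0.07 in the other comparisons.

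Leaving out 1 library at a time gave 0 to 2 calls in egl-9 hif-1 relative to N2 (main value 1), 3 to 7 in smg-2 egl-9 relative to egl-9 (5), 2 to 6 in smg-2 egl-9 hif-1 relative to egl-9 hif-1 (4) and 0 to 1 for the smg-2 by hif-1 interaction (1). The lowest counts came without N2 replicates A or D or egl-9 hif-1 replicate C in the first (and 2 without N2 replicate B), egl-9 replicate C in the second and egl-9 hif-1 replicate B in the third.

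With the replicate letter as a replicate block, 0 calls were lost, and the number of calls was 2, not 1, in egl-9 hif-1 relative to N2 and 7, not 4, in smg-1 egl-9 hif-1 relative to egl-9 hif-1. Of the 45 libraries, 28 deviated most like those of their own letter, more than an even draw among 5 letters would give. The correlation of same-letter deviations lay between -0.47 and 0.64, with a median of 0.15 and 103 of 180 pairs above 0.1. Libraries of the same letter thus tended to deviate alike, and the main fit does not use the letters. The causes of these differences between settings were not tested. Depth limits the members with few counts: 12 of 45 libraries held at most 3 counts of glb-5.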
